A study of Mus musculus with 47 samples.

Results

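Transcripts of 10 genes of pulmonary surfactant and of the alveolar type 2 cell were followed in lungs of Daxx mutant embryos and of their wild-type littermates at E18.5, with liver and brain as reference. The genes were Sftpa1, Sftpb, Sftpc, Sftpd, Abca3, Lamp3, Slc34a2, Napsa, Nkx2-1 and Etv5. They were taken by gene symbol from the 20456 genes in the count table, for what their products do and not for a response to either mutation, and all 10 were among the 16892 genes that passed the filter on low counts. The members were also the check of the tissue label, since Sftpa1, Sftpb, Sftpc, Sftpd, Lamp3 and Slc34a2 had at most 88 reads in any wild-type liver or brain and at least 3628 in every wild-type lung.

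Surfactant is the film of lipid and protein that lowers surface tension in the air spaces, and mammals need it from the first breath. Alveolar type 2 cells make it late in gestation: they assemble the lipids with the small hydrophobic proteins SP-B (Sftpb) and SP-C (Sftpc) in lamellar bodies, storage organelles related to lysosomes, and also secrete the collectins SP-A (Sftpa1) and SP-D (Sftpd), which bind microbes and regulate surfactant. The ABCA3 transporter loads lipid into lamellar bodies, and the homeodomain factor Nkx2-1 (TTF-1) drives many surfactant genes.

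Mutant embryos were homozygous for a knock-in allele of Daxx in which alanine replaces a serine (S226A, genotype S226A/S226A) or a tyrosine (Y130A, genotype Y130A/Y130A). The serine is needed for Daxx to bind the histone variant H3.3, for which it is a chaperone, and the tyrosine for it to bind Atrx. The alleles were made by CRISPR/Cas9 in C57BL/6N zygotes and crossed back to C57BL/6J, all embryos are labelled C57BL/6, and the mutations are present in every cell, so that no result below is assigned to the alveolar type 2 cell itself. Each tissue was taken from 4 S226A embryos and 4 wild-type littermates, and from 4 Y130A embryos and 4 wild-type littermates, with 3 wild-type lungs in the last group. The S226A litters were 2972, 2881, 2875 and 2970 and the Y130A litters 2848, 2851, 2974 and 3069. Values are listed in this order throughout, and a wild-type lung of litter 3069 was not analysed here. Whole tissue was sequenced, in which fewer cells of a type and less RNA per cell cannot be told apart.

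Lung libraries of the S226A litters held 15722147 to 21512763 counted reads and those of the Y130A litters 36351738 to 49731811. Daxx itself is no check of the labels, since both alleles change a single residue: its median was 29.4 CPM in S226A lung against 28.4 in wild-type littermates, and 32.3 against 33.6 in Y130A. CPM here are counts scaled to a common library total, after TMM (trimmed mean of M values), which corrects for library composition. Wild-type lungs 3 and 4 of the S226A litters (litters 2875 and 2970) stood apart from the other 13 lungs. Their transcripts in the highest decile by GC content lay 0.21 and 0.61 log2 units above those in the lowest decile, relative to all lungs, against -0.08 to 0.05 elsewhere, and the long transcripts lay 0.58 and 0.52 above the short ones, against -0.21 to 0.29 elsewhere. Results without them are given beside those for the 10 genes and for the list genes named in S226A lung, for Napsa and Csf2rb only as called or not. The brain of Y130A embryo 1 held reads of lung genes and is described with the reference tissues.

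In wild-type lung, Sftpc was the most abundant of the 10, at 6024 ± 1154 CPM per kb of exon (SD, n = 7), the highest level of the 16885 genes ranked. Sftpb and Slc34a2, a phosphate transporter of the apical membrane, followed at 428 ± 169 and 418 ± 87.8 CPM per kb. Sftpa1 reached 266 ± 58.9 and Lamp3, a membrane glycoprotein of lamellar bodies, 172 ± 33.8. The remaining levels per kb were 105 ± 21.1 for Sftpd, 88.8 ± 7.34 for Napsa, an aspartic protease that processes SP-B, 79.2 ± 26.6 for Abca3, 47.9 ± 5.39 for Etv5 and 25.2 ± 14.8 for Nkx2-1. Both transcription factors were thus the lowest of the group. Sftpc was the only gene whose 7 lungs did not overlap with those of the next gene in the order. Together the 10 genes took 1.04% to 1.71% of all counted reads in the 15 lungs, and Sftpc alone 0.554% to 0.958%.

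All 10 genes were higher in every wild-type lung than in any wild-type liver or brain, where 37.8% of all genes tested were called higher. For Sftpa1, Sftpb, Sftpc, Sftpd, Lamp3 and Slc34a2 this was fixed, since they passed the filter through lung and served as the check of the label, and no test is given. The genes differed in how far they were restricted to lung. No read of Sftpc or Nkx2-1 fell in any of the 8 wild-type livers, where the smallest liver library of the S226A litters held 17462973 reads. Sftpb, Sftpa1, Sftpd, Lamp3 and Slc34a2 reached at most 2.21 CPM in every wild-type liver and brain, against 177 to 2781 CPM in wild-type lung. Abca3 was the least restricted, at 137 to 168 CPM in liver, 99.5 to 142 in brain and 451 to 1110.4 in lung. Etv5, an ETS factor induced by FGF signalling, had 10.1 to 21.2 CPM in liver and 30.9 to 38.7 in brain against 172 to 229 in lung. Napsa had 15.1 to 22.6 CPM in liver and at most 0.222 in brain against 205 to 258 in lung. Nkx2-1, which also acts in the embryonic forebrain, had 1.09 to 2.48 CPM in brain.

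**Figure D1:**
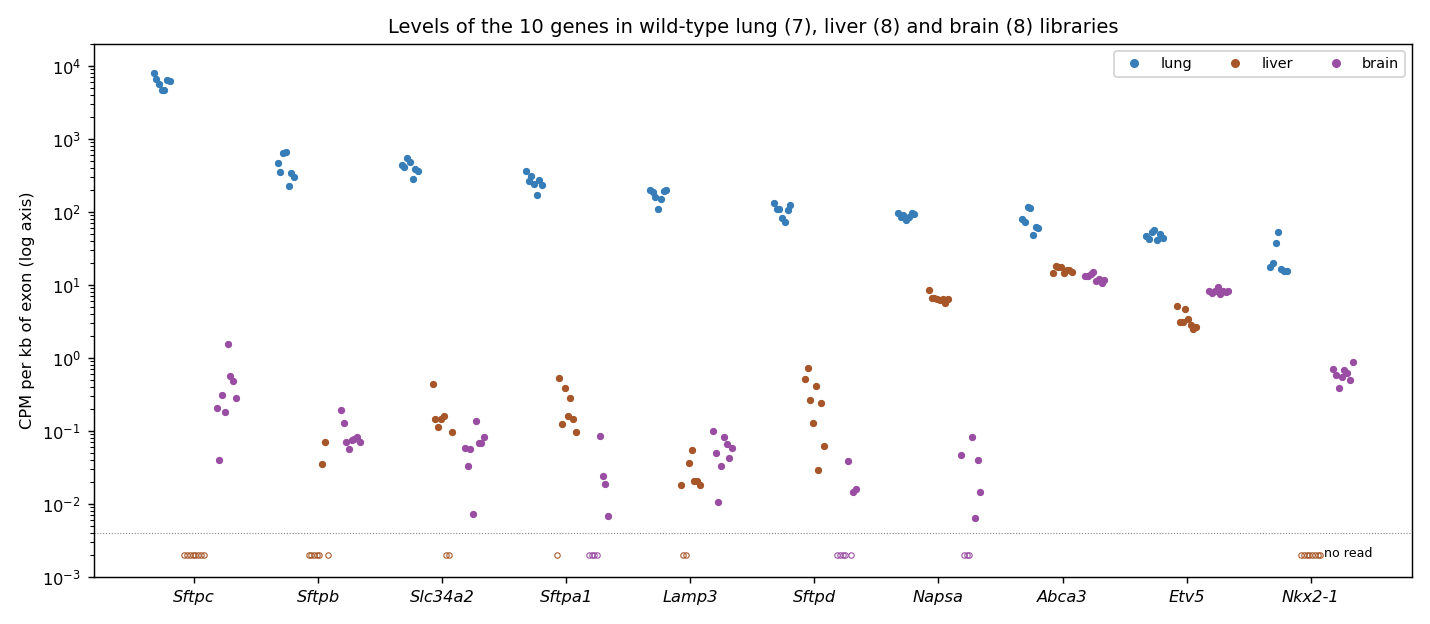
Level of each gene in CPM per kb of exon (log axis) in wild-type lung (7 libraries, blue), liver (8, brown) and brain (8, purple), each point 1 library and open points below the dotted line libraries with no read. Lung lies above both other tissues for all 10 genes, with the narrowest gap for Abca3, and Sftpc and Nkx2-1 have no read in any wild-type liver.

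None of the 10 genes was called in S226A lung against wild-type littermates, where 1.88% of all genes tested were called, or in Y130A lung, where 0.0178% were (edgeR quasi-likelihood test, adjusted p below 0.05). At an unadjusted p below 0.05 the count was 1 of 10 in S226A lung, Nkx2-1, and 0 of 10 in Y130A lung, against 2741 and 493 of all 16892 genes. DESeq2 called none of the 10 in either comparison. The median log2 fold change of the group was -0.08 in S226A lung and 0.05 in Y130A lung, beside 0.00 over all genes in both. In exact permutation tests of single genes (two-sided, 20 tests) the lowest p was 0.2 in S226A and 0.257 in Y130A lung, where the smallest that the design allows is 0.0286, and the ranges of mutant and wild-type lungs overlapped for every gene. Without wild-type lungs 3 and 4 no member was called in S226A lung either (adjusted p at least 0.799), and the fitted values of Sftpa1, Sftpc, Sftpd and Lamp3 were -0.13, -0.20, -0.23 and -0.19. Those of Slc34a2 and Etv5 were 0.03 and -0.01, against -0.11 and -0.14 with all lungs. A gene that misses the threshold is not shown to be equal in both genotypes, so the interval of each difference is given.

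**Figure D2:**
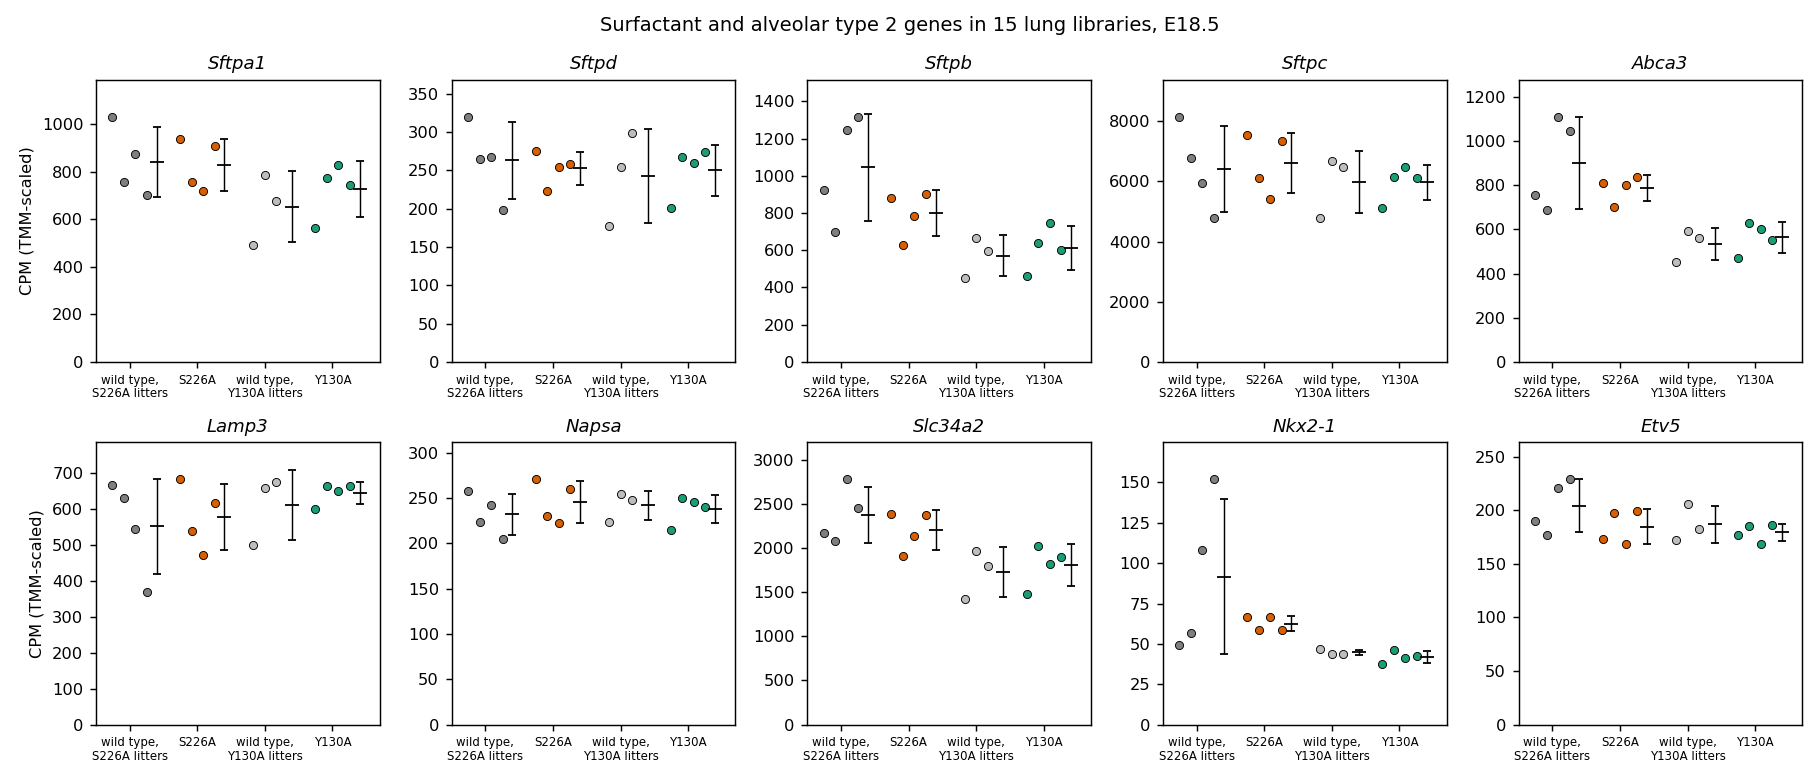
CPM of the 10 genes in each of the 15 lungs by group, with litters in the same order in mutant and wild type, and mean and SD beside the points (n = 4, or 3 for wild type of the Y130A litters). Mutant and wild-type ranges overlap for all genes, and wild-type lungs 3 and 4 of the S226A litters are high for Sftpb, Abca3 and Nkx2-1.

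The collectin genes Sftpa1 (ENSMUSG00000021789.14, chr14:41131782-41136452, plus strand) and Sftpd (ENSMUSG00000021795.10, chr14:41172214-41185149, minus strand) lie 35.762 kb apart on GRCm38. Sftpa1 measured 1032, 757, 876 and 701 CPM in wild-type littermates and 938, 757, 718 and 907 CPM in S226A lung. In the Y130A litters it measured 493, 788 and 676 CPM in wild type and 562, 773, 829.6 and 745 CPM in the mutant. The genotypes overlapped in both sets, and the lowest value in each genotype of the Y130A set came from litter 2848. Sftpd measured 320.2, 265, 268 and 199 CPM in wild-type littermates against 275, 223, 255 and 258 in S226A lung, and 177, 254 and 298 against 201, 267, 259 and 274 in Y130A lung. The log2 fold changes of Sftpa1 were -0.02 (95% interval -0.69 to 0.65) in S226A and 0.16 (-0.57 to 0.88) in Y130A lung. For Sftpd they were -0.06 (-0.58 to 0.47) and 0.04 (-0.52 to 0.61).

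Of the genes of the surface film, Sftpb (ENSMUSG00000056370.15, chr6:72304610-72314371, plus strand) was the lower one in S226A lung by its fitted value, without passing the test. It measured 925, 700.3, 1244 and 1318 CPM in wild-type littermates and 881, 630.3, 784 and 903 CPM in S226A lung, a mean of 1047 ± 287 against 799.7 ± 124 (SD, n = 4 each). The mutant lay below its littermate in each of the 4 litters, by a factor of 0.952, 0.900, 0.630 and 0.685. The log2 fold change was -0.39 (95% interval -0.83 to 0.05, adjusted p = 0.387), and with litter as a block -0.36 (unadjusted p = 0.0155, adjusted p = 0.145). Most of that difference lay in litters 2875 and 2970, and without the wild-type lungs of those litters, which stood apart, it was -0.05 (adjusted p = 0.998). In Y130A lung Sftpb measured 461, 637, 745 and 602 CPM against 450.3, 665 and 596 in wild type (log2 fold change 0.10, interval -0.38 to 0.58).

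Sftpc (ENSMUSG00000022097.4, chr14:70520949-70524081, minus strand) measured 8155, 6773, 5945 and 4772 CPM in wild-type littermates and 7538, 6127, 5418 and 7354 CPM in S226A lung. Only the mutant of litter 2970 lay above its wild-type littermate, by a factor of 1.54, beside 0.905 to 0.924 in the other litters. In the Y130A litters it measured 4792, 6684 and 6480.5 CPM in wild type and 5125, 6158, 6473 and 6118 CPM in the mutant. The log2 fold changes were 0.04 (95% interval -1.05 to 1.14) in S226A and 0.00 (-1.19 to 1.18) in Y130A lung. These intervals come from the fit of all 47 libraries, which shares a dispersion for each gene among lung and tissues where Sftpc had few or no reads. When the 15 lungs were fitted alone the intervals of Sftpc ran from -0.31 to 0.37 and from -0.37 to 0.37. The shared dispersion also bears on Sftpa1, Sftpb, Sftpd, Lamp3 and Slc34a2, which had few or no reads in wild-type liver and brain. Their intervals and tests from the fit of all 47 libraries therefore do not give the uncertainty within lung alone. In the fit of the 15 lungs none of them was called in either mutant lung. The plot of log2 fold changes from both fits shows the interval of each gene.

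**Figure D3:**
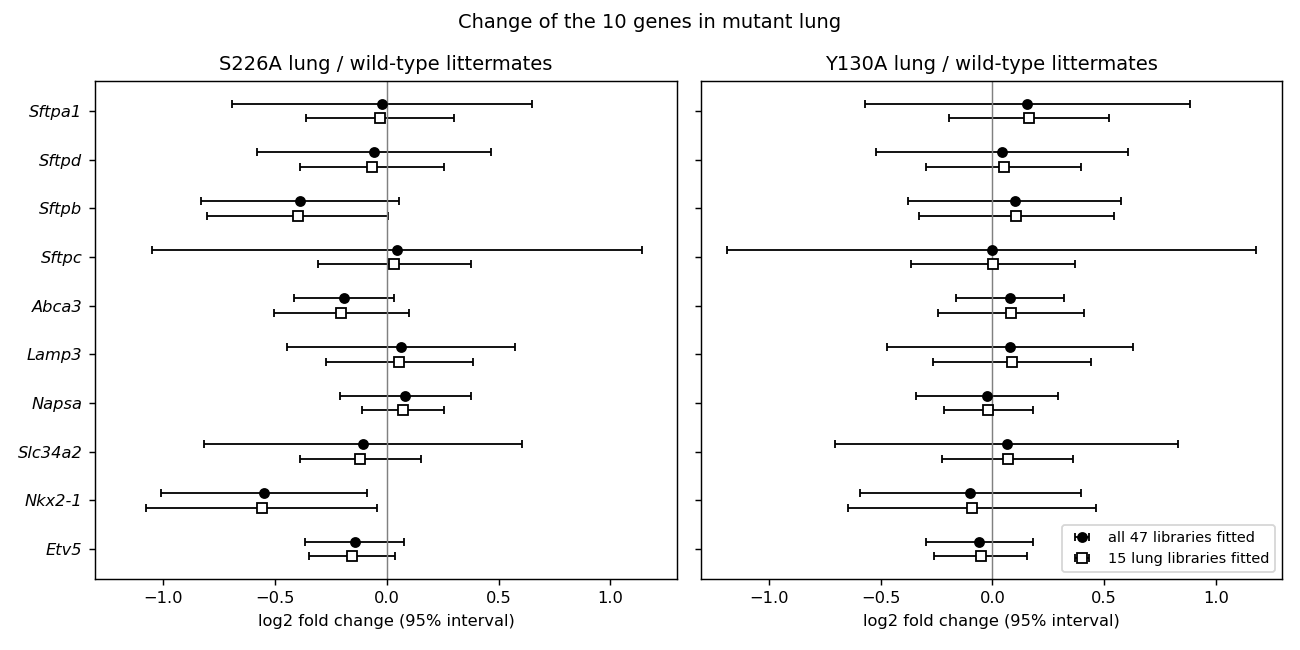
Log2 fold change of each gene in mutant over wild-type littermate lung with its 95% interval, for S226A (left) and Y130A (right), from the fit of all 47 libraries (filled circles) and of the 15 lungs alone (open squares). All intervals of the first fit include 0 except that of Nkx2-1 in S226A lung, from -1.01 to -0.09 (adjusted p = 0.212), and the intervals of Sftpc narrow most in the second.

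None of the lamellar body genes was called. Abca3 (ENSMUSG00000024130.15, chr17:24351950-24410201, plus strand) measured 757, 686, 1110.4 and 1045 CPM in wild-type littermates and 809.8, 700.5, 799.9 and 838 in S226A lung, so that wild-type lungs 3 and 4 lay above all mutants and wild-type lung 2 below them. Its log2 fold change was -0.19 (95% interval -0.42 to 0.03, adjusted p = 0.402), and 0.10 (adjusted p = 0.868) without both of those wild-type lungs. Lamp3 (ENSMUSG00000041247.8, chr16:19653378-19706375, minus strand) showed the opposite order in the same libraries. It measured 665, 631, 544 and 369.7 CPM in wild type, lowest in lungs 3 and 4, and 683, 540.0, 472 and 617 in S226A lung (log2 fold change 0.07, interval -0.44 to 0.57). Napsa (ENSMUSG00000002204.9, chr7:44572380-44586862, plus strand) varied little, at 205 to 258 CPM in wild-type littermates and 223 to 271 in S226A lung (log2 fold change 0.08, interval -0.21 to 0.38).

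Y130A lung overlapped with wild type for the same genes. Abca3 measured 470.3, 628, 603 and 553 CPM against 451, 591 and 559 in wild-type littermates (log2 fold change 0.08, 95% interval -0.16 to 0.32). Lamp3 measured 600.2, 665, 651 and 664 CPM against 499, 658 and 675 (0.08, interval -0.47 to 0.63), and Napsa 215 to 251 against 224 to 254 (-0.02, interval -0.34 to 0.29). Slc34a2 (ENSMUSG00000029188.14, chr5:53038081-53071664, plus strand) measured 2174, 2081, 2781 and 2455 CPM in wild type and 2382, 1913, 2137 and 2380.3 in S226A lung (-0.11, interval -0.82 to 0.60). In the Y130A litters it measured 1424, 1967 and 1798 against 1478, 2025, 1821 and 1904 (0.06, interval -0.71 to 0.83).

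Nkx2-1 (ENSMUSG00000001496.15, chr12:56531958-56536908, minus strand) had the most negative log2 fold change of the group in S226A lung, -0.55 (95% interval -1.01 to -0.09, adjusted p = 0.212), and its sign rested on wild-type lungs 3 and 4. The wild-type lungs measured 49.6, 56.8, 108 and 152 CPM and the S226A lungs 66.7, 58.5, 66.4 and 58.6. Both mutants of litters 2972 and 2881 lay above their littermates and both mutants of litters 2875 and 2970 below them. Without wild-type lungs 3 and 4 the value was 0.21 (adjusted p = 0.799), while leaving out wild-type lung 1 or 2 in their place gave -0.76 (adjusted p = 0.0335) or -0.72 (adjusted p = 0.0422). In Y130A lung Nkx2-1 measured 37.3, 46.5, 41.0 and 42.7 CPM against 46.8, 43.8 and 43.9 in wild type (-0.10, interval -0.59 to 0.40). Etv5 (ENSMUSG00000013089.15, chr16:22381309-22439719, minus strand) measured 190.1, 177, 220.3 and 229 CPM in wild type and 173, 198, 168 and 199 in S226A lung (-0.14, interval -0.37 to 0.08). In the Y130A litters it measured 172, 206 and 183 against 177, 185, 169 and 186 (-0.06, interval -0.30 to 0.18).

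The effects of the alleles on lung were not shown to differ for any of the 10 genes by the test of the difference itself (adjusted p at least 0.609), where 0.308% of all genes were called. The difference of the log2 fold changes, S226A minus Y130A, ranged from -0.49 (95% interval -1.14 to 0.16) for Sftpb to 0.11 (-0.32 to 0.54) for Napsa. No member had an unadjusted p below 0.05 in that test, against 1655 of all genes, and DESeq2 called none. To set the members against the epithelium around them, the mean log2(CPM + 1) of 15 general epithelial genes was subtracted in each library. None of the 20 exact permutation tests of these ratios gave a p below 0.05 (lowest 0.2 in S226A and 0.314 in Y130A lung, two-sided, smallest possible 0.0286).

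Other genes of the type 2 cell and of its surroundings were counted in lists. Of 17 genes of surfactant lipid synthesis, 18 of processing, lamellar bodies and recycling, 17 further type 2 markers, 18 regulators of distal epithelium, 16 of FGF signalling and 10 measured genes induced by glucocorticoids, 0 were called in S226A lung and 0 in Y130A lung. The medians of their log2 fold changes lay between -0.18 and -0.02 in S226A lung and between -0.02 and 0.04 in Y130A lung. At the lowest p of its list in S226A lung, Sox9, a factor of distal epithelial tips, measured 5.83 to 7.68 CPM against 6.97 to 18.2 in wild type (log2 fold change -0.82, adjusted p = 0.0608). Fasn, the fatty acid synthase, measured 828 to 1153 CPM against 984 to 1682 (-0.35, adjusted p = 0.195). The other genes with the lowest p of their lists, the synaptotagmin Syt7 (-0.48, adjusted p = 0.167), the clock gene Per1 (-0.48, 0.121), Spred2, an inhibitor of Ras signalling (-0.42, 0.259), and the transcription factor Cebpa (-0.20, 0.428), overlapped with wild type as well. For each of these genes the highest wild-type value exceeded the highest mutant value, and the differences rested on wild-type lungs 3 and 4. Without those lungs the log2 fold changes were -0.20 for Sox9, -0.03 for Fasn, -0.06 for Syt7, 0.02 for Per1, 0.18 for Spred2 and -0.02 for Cebpa (adjusted p at least 0.862), and 0 genes of the 6 lists were called.

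Lists of other lung cells gave 0 calls in either mutant lung for general epithelium (15 genes), alveolar type 1 cells (11), club and ciliated airway cells (10), mesenchyme (10) and endothelium (9), and the same held for 9 red cell, 9 hepatocyte and 8 neuron genes. The summed level of the general epithelial genes was 1585 to 1968 CPM in S226A lung and 1754 to 1953 in wild-type littermates, and that of the type 1 genes 3826 to 5318 against 4528 to 4936. The genes of lowest p in S226A lung were Cldn3 (log2 fold change -0.25), Gprc5a (-0.37), Scgb3a1 (-1.03), Plin2 (0.22), Tek (0.20), Slc4a1 (-0.57), Fgb (-0.99) and Gad1 (-1.39), in the order of the lists, with adjusted p from 0.211 to 0.630. Without wild-type lungs 3 and 4 they were -0.31, -0.02, -1.34, 0.01, 0.12, -0.91, -1.82 and -1.70 (adjusted p at least 0.296). Hepatocyte genes were present at 12.3 to 1633 summed CPM in lungs, and at 181379 or more in liver. In Y130A lung no gene of any of the 16 lists was called, and the gene of lowest p in each list had an adjusted p of 1.

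Macrophages, which take up and degrade spent surfactant after birth, were the exception in S226A lung. Of 10 macrophage genes 3 were lower, where 1.88% of all genes were called in either direction: Csf1r, the receptor for macrophage colony-stimulating factor, Cx3cr1, a chemokine receptor, and Adgre1 (F4/80). Csf1r measured 24.2, 28.4, 24.6 and 23.1 CPM in S226A lung against 56.0, 52.9, 55.2 and 55.9 in wild-type littermates, 2 ranges far apart (log2 fold change -1.13, SE 0.07, adjusted p = 5.16e-14). For Cx3cr1 the change was -1.25 (SE 0.19, adjusted p = 4.28e-05) and for Adgre1 -0.58 (SE 0.16, adjusted p = 0.0464). The other 7, with Mrc1, Cd68 and the C1q genes among them, did not pass the test, though without wild-type lungs 3 and 4 Mrc1 did (-0.41, adjusted p = 0.0338). The summed level of the list was 244 to 257 CPM in S226A lung and 289.8 to 341 in wild type.

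In a list of 10 genes of surfactant clearance by macrophages, 2 were lower and 1 was higher in S226A lung, beside the same 1.88% of all genes. Csf2rb, the signalling chain of the GM-CSF receptor, without which alveolar macrophages fail to clear surfactant, measured 11.2, 12.5, 11.4 and 10.9 CPM in S226A lung against 19.3, 20.8, 26.1 and 25.6 in wild type (log2 fold change -0.99, SE 0.16, adjusted p = 0.000196). Its near-identical neighbour Csf2rb2 changed by -1.64 (SE 0.38, adjusted p = 0.0154) at 0.559 to 1.40 against 2.11 to 3.56 CPM, and reads may have been split between the pair. Marco, a scavenger receptor, measured 7.55, 6.06, 6.24 and 5.49 CPM against 4.13, 3.73, 2.70 and 1.92 and was the gene that rose (1.01, SE 0.24, adjusted p = 0.0165). Csf2ra, Pparg, Abcg1, Msr1, Cd36, Fabp4 and Siglecf did not pass the test. In Y130A lung the log2 fold changes of Csf1r, Cx3cr1, Csf2rb and Marco were 0.00, -0.07, 0.02 and 0.37, and the difference between the alleles was called for Csf1r (adjusted p = 6.46e-09), Cx3cr1 (0.0353) and Csf2rb (0.0381) and not for Marco (0.537), Adgre1 (0.161) or Csf2rb2 (0.138). Without wild-type lungs 3 and 4, Csf1r (log2 fold change -1.14), Cx3cr1 (-1.45) and Csf2rb were still called. Adgre1, Csf2rb2 and Marco then missed the threshold, at log2 fold changes of -0.69, -1.58 and 0.67. Adgre1 also missed it without wild-type lung 1, 3 or 4 or S226A lung 2, 3 or 4 (-0.65 to -0.44), Csf2rb2 without wild-type lung 4 or S226A lung 2 or 4 (-1.60 to -1.47), and Marco without wild-type lung 3 or 4 or S226A lung 1 (0.84 to 0.93).

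The wild-type lungs of both sets of litters differed in 3 of the 10 genes, all higher in the S226A litters, where 10.8% of all genes were called higher. Abca3 was 1.69 times as high (log2 fold change 0.75, SE 0.12, adjusted p = 2.99e-05), Sftpb 1.84 times (0.88, SE 0.24, adjusted p = 0.00751) and Nkx2-1 2.04 times (1.03, SE 0.25, adjusted p = 0.00349). Without wild-type lungs 3 and 4 of the S226A litters only Abca3 was called (0.45, adjusted p = 0.0180), Sftpb and Nkx2-1 being at 0.53 (adjusted p = 0.239) and 0.26 (adjusted p = 0.497). Leaving out wild-type lung 1 of the Y130A litters lost Sftpb (0.73, adjusted p = 0.0681), and leaving out wild-type lung 4 of the S226A litters brought Nkx2-1 to 0.67 (adjusted p = 0.0347). With the deeper set thinned to the depth of the other, all 3 were called. For Abca3 the sets did not overlap in either genotype: S226A lungs measured 700.5 to 838 CPM and Y130A lungs 470.3 to 628. Litters and depth went with the set and cannot be told apart.

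Litters of the same set were then compared with each other, with mutant and wild type averaged within a litter. Abca3 was called (adjusted p = 0.0404) and Sftpb was at an unadjusted p of 0.00773 (adjusted p = 0.0873), with 5.06% of all genes called. The call of Abca3 was lost in the fit of the 15 lungs alone, after correction for transcript GC and length, without wild-type lungs 3 and 4, and when a single wild-type lung was left out, namely 2, 3 or 4 of the S226A litters or any of the Y130A litters. Litter 2848 had the lowest value of the Y130A set in both genotypes for Sftpa1, Sftpb, Sftpc, Sftpd, Abca3, Lamp3, Slc34a2 and Napsa. Both genotypes of that litter were thus low together, by ratios of mutant to wild type between 0.961 and 1.20 for these genes.

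**Figure D4:**
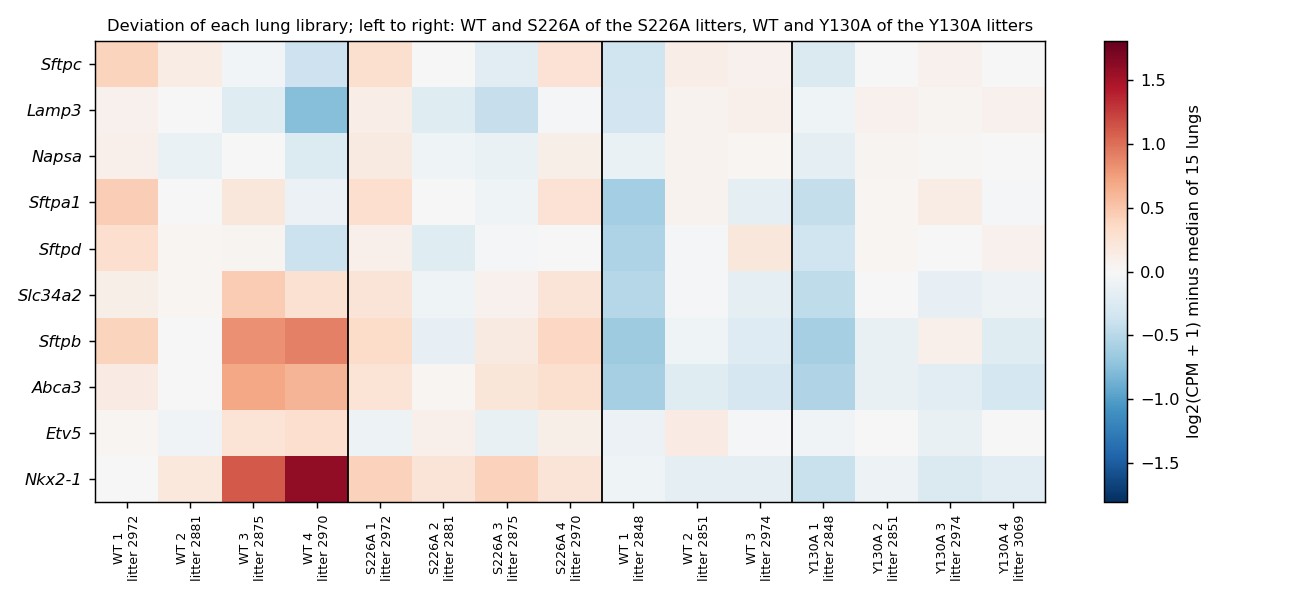
Log2(CPM + 1) of each gene in each lung minus its median over the 15 lungs, in colour, with litters named under the columns and groups separated by lines. Wild-type lungs 3 and 4 of the S226A litters are high in Nkx2-1, Sftpb and Abca3 and lung 4 is low in Lamp3, and both lungs of litter 2848 are low in most genes.

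Within groups, some of the genes varied together. After subtraction of group means, Pearson's r over the 15 lungs was 0.94 for Sftpc with Lamp3, 0.90 for Sftpc with Napsa and 0.92 for Sftpa1 with Napsa, and likewise 0.94 for Sftpb with Abca3 and 0.89 for Abca3 with Slc34a2. Pairs across these ranged from -0.19 for Abca3 with Lamp3 to 0.66 for Sftpa1 with Slc34a2. Between them lay -0.10 for Sftpb with Lamp3, -0.05 for Sftpc with Abca3, 0.11 for Sftpb with Sftpc and 0.52 for Sftpa1 with Sftpb. Over the 13 lungs other than wild-type lungs 3 and 4, r of these pairs was 0.62, 0.86, 0.64, 0.77, 0.83 and 0.92, in the order given. Of the 45 pairs 20 then exceeded 0.8, against 11 with all lungs. Nkx2-1 ran against Sftpc (-0.64) and Lamp3 (-0.71) over 15 lungs and stood at -0.12 and -0.06 over 13. Since the points are the same libraries, scaled by the same totals and differing in cell composition, these are descriptions without a test. The genes most like the mean of the 10 over the lungs, of 13748 compared, were Atp6v1c2 (0.94), Tgoln1 (0.92), Gdpd2 (0.92), Scarb2 (0.92), C6 (0.91) and Adgrf5 (0.91).

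Promoters of 4 genes from these pairs are shown, to let their sequence be read beside the levels. RefSeq promoters (GRCm38.p6, 250 bases before to 50 bases after the start) were matched for 7 of the 10 genes, and those of Sftpc, Sftpd and Napsa were not among them. Capitals mark CAAG, the core of the site that Nkx2-1 binds, on either strand (CTTG on the strand shown).
Sftpa1 promoter, chr14:41131538-41131837, plus strand: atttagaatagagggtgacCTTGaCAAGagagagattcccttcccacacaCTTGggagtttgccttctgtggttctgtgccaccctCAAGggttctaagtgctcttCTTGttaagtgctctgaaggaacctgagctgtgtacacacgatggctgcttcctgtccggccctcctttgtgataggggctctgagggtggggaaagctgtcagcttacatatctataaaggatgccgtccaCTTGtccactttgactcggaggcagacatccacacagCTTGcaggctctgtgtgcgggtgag
Lamp3 promoter, chr16:19706316-19706615, minus strand: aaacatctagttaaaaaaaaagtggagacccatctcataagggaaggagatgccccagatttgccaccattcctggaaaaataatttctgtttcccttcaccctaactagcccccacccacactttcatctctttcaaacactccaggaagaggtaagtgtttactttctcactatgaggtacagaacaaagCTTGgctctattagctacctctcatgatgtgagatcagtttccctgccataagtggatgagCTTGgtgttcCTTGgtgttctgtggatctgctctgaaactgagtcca
Sftpb promoter, chr6:72304360-72304659, plus strand: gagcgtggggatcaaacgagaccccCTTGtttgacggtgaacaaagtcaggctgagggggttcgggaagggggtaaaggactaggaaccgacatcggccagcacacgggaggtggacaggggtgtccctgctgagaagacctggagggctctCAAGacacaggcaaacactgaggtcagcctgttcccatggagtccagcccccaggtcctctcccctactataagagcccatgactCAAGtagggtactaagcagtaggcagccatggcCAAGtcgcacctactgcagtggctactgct
Abca3 promoter, chr17:24351773-24352072, plus strand: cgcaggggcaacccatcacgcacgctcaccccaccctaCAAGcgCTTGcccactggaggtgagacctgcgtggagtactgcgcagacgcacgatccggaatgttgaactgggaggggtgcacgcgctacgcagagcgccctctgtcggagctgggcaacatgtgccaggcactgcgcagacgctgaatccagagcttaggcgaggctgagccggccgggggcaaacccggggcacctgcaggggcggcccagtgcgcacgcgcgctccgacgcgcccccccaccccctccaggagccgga
The promoter of Sftpa1 held 7 matches, that of Sftpb 4, of Lamp3 3 and of Abca3 2. Among those not shown, Nkx2-1 held 6, each of the 2 promoters of Etv5 1 and Slc34a2 0. Of 32851 promoters of the same length, 90.6% held CAAG and 47.6% held it at least 3 times, so that the letters are common. TGTTTAC, a forkhead motif, was found once in the Lamp3 promoter and once in 1 Etv5 promoter, where it overlaps a CAAG, and in 3.6% of all promoters. TATAAA was found once in that of Sftpa1 and in 13.6% of all.

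Liver gave calls for 2 of the 10 genes in S226A embryos, where 11.7% of all genes were called, and this comparison was added after the liver counts had been seen. Napsa measured 37.7, 33.4, 32.9 and 32.0 CPM in S226A liver against 22.6, 17.5, 17.4 and 16.9 in wild-type littermates, with no overlap (log2 fold change 0.87, SE 0.16, adjusted p = 0.000140). Etv5 measured 10.7, 7.90, 8.17 and 6.83 CPM against 21.2, 12.9, 12.8 and 19.4, again with no overlap and in the other direction (-0.99, SE 0.13, adjusted p = 4.41e-07). In Y130A liver Napsa had a log2 fold change of 0.02 (95% interval -0.29 to 0.34) and Etv5 of 0.01 (-0.23 to 0.26), and none of the 10 genes was called, where 0.272% of all genes were (no member had an unadjusted p below 0.05).

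The differences between alleles and between tissues passed the test for these genes. In liver, the S226A effect minus the Y130A effect was 0.85 for Napsa (SE 0.22, adjusted p = 0.0151) and was -1.004 for Etv5 (SE 0.18, adjusted p = 0.000231), where 5.9% of all genes were called. The S226A effect in liver minus that in lung was 0.79 for Napsa (SE 0.22, adjusted p = 0.0188) and was -0.84 for Etv5 (SE 0.17, adjusted p = 0.000870), where 6.9% of all genes were called. Abca3, the most abundant member in liver, measured 134 to 178 CPM in S226A liver against 138 to 168 (log2 fold change -0.03, interval -0.26 to 0.20).

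Cell type markers moved with these changes. All 10 macrophage genes were lower in S226A liver, at a summed level of 263 to 331 CPM against 833 to 889 in wild type, and their part in the levels of Napsa and Etv5 was not tested. Of 9 endothelial genes Cdh5 (log2 fold change -0.46, adjusted p = 0.00697) and Pecam1 (-0.34, adjusted p = 0.0363) were lower, at a summed level of the list of 370.5 to 424 CPM against 445 to 494, and their part was not tested either. None of 9 hepatocyte or 9 red cell genes was called in S226A liver. The summed hepatocyte level was nevertheless 181379 to 221028 CPM there against 223673 to 229605 in wild-type littermates, without overlap, and its part was not tested. That of the red cell genes was 21835.2 to 26053.8 CPM against 22428.5 to 30299.9, with overlap. Of the 16 FGF signalling genes 2 were called, a share near the 11.7% of all genes, and they were chosen for naming after their values were seen: Etv1, like Etv5 an ETS factor of that pathway (log2 fold change -1.30, adjusted p = 0.00260), and the inhibitor Spred1 (-0.45, adjusted p = 5.13e-05), both lower. Of 17 lipid synthesis genes 5 were lower, and of 17 further type 2 markers 2 were higher and 4 lower. Of 18 processing genes 3 were higher and 1 lower, and of 18 regulators of distal epithelium 2 were lower. Of 10 glucocorticoid genes and of 8 neuron genes 1 each was lower. In the list of surfactant clearance Csf2ra (1.09) and Csf2rb (0.56) were higher, although Csf2rb was lower in S226A lung.

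**Figure D5:**
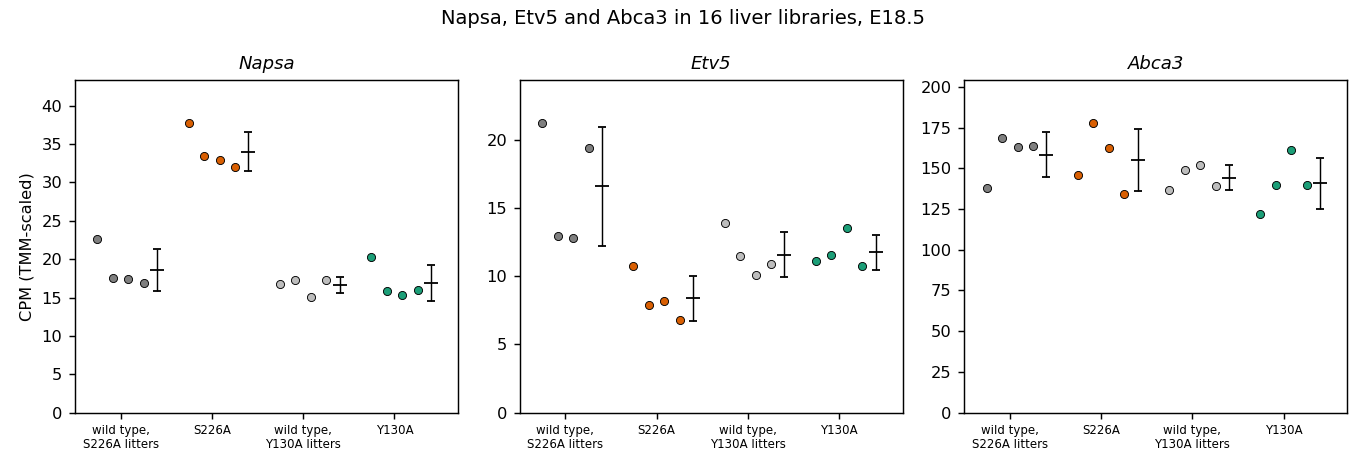
CPM of Napsa, Etv5 and Abca3 in each of the 16 livers by group, with mean and SD (n = 4 each). The S226A livers lie above all others for Napsa (32.0 to 37.7 CPM) and below their wild-type littermates for Etv5 (6.83 to 10.7 CPM), and overlap with all groups for Abca3.

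In brain none of the 10 genes was called in S226A (0.243% of all genes called) or Y130A embryos (0.00592%), by edgeR. At an unadjusted p below 0.05 there were 0 of 10 in S226A brain (383 of all genes) and 5 of 10 in Y130A brain (375). The latter were Sftpb, Sftpc, Sftpd, Lamp3 and Napsa. Brain 1 of the Y130A group, from litter 2848, held most of the group's reads of these genes apart from Napsa. Napsa had 22 reads there and 5 to 11 in the other 3 brains, and its log2 fold change was 1.23, with 0.75 to 1.27 over the alternatives. Brain 1 held 671 reads of Sftpc (13.2 CPM), 100 of Lamp3, 68 of Sftpb and 46 of Sftpd. It also held 182 of Slc34a2 and 70 of Sftpa1, which were not among the 5. The other 3 Y130A brains had at most 21 reads of any of these genes. The levels in brain 1 were 0.242% to 0.450% of those in the lung of the same embryo, and for Napsa 0.201%. Abca3 and Etv5, which brain expresses, were 119 and 33.5 CPM there, within or close to 104 to 116 and 32.8 to 35.5 in the other Y130A brains.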

How the data were processed

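RNA of whole liver, lung and brain of E18.5 embryos was sequenced in 47 libraries of 12 groups. The deposited values are counts, the number of reads that the authors assigned to each gene, without normalization, after trimming with Trim Galore 0.6.5, quality checks with FastQC 0.11.5 and alignment to GRCm38 with STAR 2.6.0b, which also counted the reads per gene. The strand setting of the counting is not given in the sources used here, and Abca3, Slc34a2, Napsa and Nkx2-1 overlap antisense genes whose reads could not be told apart from theirs. Depth was 15722147 to 26190403 counted reads per library in the S226A litters and 36351738 to 54885020 in the Y130A litters, and intervals and SD cover these libraries only.

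Counts of all 47 libraries were fitted with edgeR 4.0.16 (R 4.3.3; quasi-likelihood F-test, TMM, 1 coefficient per group) after filterByExpr (minimum count 10, minimum total 15), with Benjamini-Hochberg adjustment over all 16892 genes tested and a call at an adjusted p below 0.05. SE was computed as |log2 fold change| over the root of the F statistic. Single genes were compared on log2(CPM + 1) with exact permutation tests. The script was tested on simulated data.

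Litter was read from the number before the first hyphen of the titles. Mutant and wild-type lungs of a litter deviated together (correlation of their deviations from the group means 0.14 to 0.52 in 7 of 7 pairs, and above 0.1 in 6 of 8 pairs in liver and in brain), and litter was used as a block in an alternative. No library was a copy of another, since counts of the 69 replicate pairs differed by at least 3.82 in chi-square over its degrees of freedom.

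The genes and lists were chosen with earlier results of these data known. The text names all 10 genes, from each list the genes called in either mutant lung (up to 4 by adjusted p) or otherwise the gene with the lowest p in S226A lung (for Y130A lung, only its adjusted p), and the 6 genes most like the members' mean. Alternatives were DESeq2 1.42.0 (the authors' tool), RLE size factors, no filter, only the lung libraries or those compared, a litter block, thinning of the deeper set, leaving out each library, another pseudocount (0.1), a paired exact test, no TMM and the alveolar type 1 list. The paired exact test has too few litters to reach a p below 0.05, so its count of 0 was fixed and decides nothing. Correction for GC and length, leaving out both wild-type lungs that stood apart or both livers in which squamous epithelium genes had reads, and the liver and brain results were added after seeing the data. Positions follow the GENCODE annotation of GRCm38.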

Additional observations from a re-analysis of the deposited data

Results flagged for a closer look

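The brain of Y130A embryo 1 stood apart from the other 3 of its group, by the gap to the nearest value relative to the range (Dixon's test at the 95% level), in 6 of the 10 genes. Its levels were 1.38 CPM for Sftpa1, 1.34 for Sftpb, 13.2 for Sftpc, 0.905 for Sftpd, 1.97 for Lamp3 and 3.58 for Slc34a2, where the other brains of the group ranged from 0 to 0.427 CPM. The wild-type brain of the same litter had 88 reads of Sftpc (1.63 CPM), the highest of the wild-type brains. Without Y130A brain 1 none of the 10 genes was called in Y130A brain, as with it.

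The same test marked 6 values in liver. Napsa was high in wild-type liver 1 of the S226A litters (22.6 CPM) and in Y130A liver 1 (20.3 CPM), against at most 17.5 in the rest of either group. Slc34a2 was at 2.21 CPM in that wild-type liver and at most 0.736 in the other 3. Of levels near 0, Sftpc was at 0.263 CPM in S226A liver 1 and 0 in the rest. Lamp3 was at 0.186 CPM in the wild-type liver of litter 2851, of the Y130A litters, against at most 0.0696, and at 0.163 CPM in Y130A liver 4 and 0 in the rest. Over 94 groups of 4 examined, 12 values stood apart, where independent groups would give about 4.7 by chance. The count cannot be judged against that number, since 6 of the values came from 1 library, Y130A brain 1. In addition, where the rest of a group is 0, any other value is marked.

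The S226A effect differed from the Y130A effect in liver by 0.85 (log2) for Napsa and -1.004 for Etv5, and the S226A effect in liver differed from that in lung by 0.79 for Napsa and -0.84 for Etv5, each by the test of the difference with edgeR. Macrophage genes fell in the same livers, and their part in these differences was not tested.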

How the results depend on the processing

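Of 168 recomputed counts 149 stayed within 1.5 times the reported one, and no direction of a called member turned. In S226A lung the number of members called ranged from 0 to 1 when a library was left out (Nkx2-1, without wild-type lung 1 or 2 of the S226A litters) and was 0 in all other alternatives. In the wild-type lungs of both sets it was 3, and 1 (Abca3) without wild-type lungs 3 and 4, and 2 to 3 when a library was left out. DESeq2, with all libraries, missed Sftpb (log2 fold change 0.89, adjusted p = 0.279). Between litters it was 1, and 0 in the fit of the 15 lungs, 0 with GC and length correction, 0 without both wild-type lungs, and 0 to 2 when a library was left out. Exact tests with p below 0.05 numbered 0, and 0 to 1 when a library was left out (Sftpb in S226A, without wild-type lung 2). Relative to epithelium they numbered 0, then 1 against the alveolar type 1 list (Nkx2-1 in Y130A), and 0 to 2 when a library was left out. The litter block, for which the pairing is given with the methods, called 0 members in either mutant lung and 0 in their difference and kept Napsa and Etv5 in liver. Calls over all genes moved more. In S226A lung they were 317, and 612 with the block, 96 with the block in the 15 lungs, 65 in the 15 lungs, 34 in the libraries compared, 171 without wild-type lungs 3 and 4, 643 by DESeq2 and 135 to 1423 when a library was left out. In Y130A lung they were 3, and 0 to 17 over all alternatives. For the difference they were 52, and 124 with the block, 129 with the block and GC correction, 23 with the block in the 15 lungs, 12 in the 15 lungs, 191 by DESeq2 and 18 to 175 when a library was left out. Between the wild-type sets they were 3388, and 868 without wild-type lungs 3 and 4. Between litters they were 855, and 4 in the 15 lungs, 325 without wild-type lungs 3 and 4 and 3493 by DESeq2. In S226A liver they were 1972, and 1258 in the 16 livers and 1130 in the libraries compared. Napsa and Etv5 in liver were called in all 17 alternatives (log2 fold changes 0.80 to 0.98 and -1.12 to -0.85). In S226A lung Csf1r, Cx3cr1 and Csf2rb were called in all 18, Csf2rb2 and Marco in 11 and Adgre1 in 8. The cause of these shifts was not tested. The interval of Sftpc in S226A lung, -1.05 to 1.14 in the fit of all 47 libraries, was -0.31 to 0.37 in the fit of the 15 lungs.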

Other observations

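Between the wild-type lungs of both sets, where 10.8% of all genes were called higher in the S226A litters, list genes other than the members were called as well. Of 18 regulators of distal epithelium 7 were higher, with Foxa1 (log2 fold change 1.01) and Sox9 (1.10) among them, and Foxa2 was lower (-0.38). Of 17 genes of lipid synthesis 5 were higher, led by Fasn (0.62), and Fabp5 was lower (-0.46). Of 17 further type 2 markers 3 were higher, Kcnj15 (0.94), Hc (0.85) and Cebpa (0.48). Of 18 genes of surfactant processing, lamellar bodies and recycling 3 were higher and 2 lower. Of 16 FGF signalling genes 2 were higher, and so were 2 of 10 genes of surfactant clearance by macrophages. The share of all genes called lower is not given here. Of 10 genes induced by glucocorticoids, Per1 (1.08) and Hif3a (1.21) were higher. Other cell types gave calls too: 1 of 11 alveolar type 1 genes, 2 of 10 airway genes, 1 of 10 mesenchymal genes and 1 of 8 neuron genes were higher, of 9 endothelial genes 1 was higher and 1 lower, and of 10 macrophage genes 2 were higher and 1 lower. General epithelium (15 genes), red cell (9) and hepatocyte (9) genes gave 0 calls. Without wild-type lungs 3 and 4 of the S226A litters, where 2.96% of all genes were called higher, 1 of the 18 regulators, 0 of the 17 lipid genes and 1 of the 10 glucocorticoid genes (Per1, 0.57) were called, and Foxa1, Sox9 and Fasn stood at 0.51, 0.47 and 0.29 without passing the test. In that fit 1 of the 17 further type 2 markers and 1 of the 18 processing genes were higher. Of the FGF and clearance lists 0 genes were called. The genes named here were chosen after their values were seen, and set, litter and depth cannot be told apart here.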
